A study of Mus musculus with 7 samples.

Results

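The baseline transcriptome of the cochlear epithelium was described in the 3 control libraries of a mouse study of 7 libraries. All libraries of genotype Control were taken, and none of another genotype was used, so no comparison between genotypes was made and no test was run. The study set Brg1 knockout embryos beside these controls. The 3 libraries came from mouse embryos at embryonic day 16, per the labels, from untreated tissue named cochlear epithelium with cells named only as cochlear cells. Libraries were prepared from total RNA (RNeasy Micro extraction) with NEBNext Ultra reagents. The sources used here do not give the alleles that the controls carried, the Cre driver of the study, the number of embryos in a library or the sex of the embryos. Separate animals or dissections are not named for the replicates, so every SD below measures only the spread between these libraries, which may be technical in part.

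The cochlear duct is a coiled epithelial tube in which sound is later turned into nerve signals. Its floor holds the prosensory domain, from which hair cells and supporting cells form, and beside it the greater epithelial ridge, which secretes much of the tectorial membrane. Its roof and lateral wall give Reissner's membrane and the stria vascularis, the tissue that pumps potassium into the endolymph, and the duct is wrapped in periotic mesenchyme and cartilage and innervated by the spiral ganglion.

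Expression was read as FPKM, fragments per 1000 bases of gene and scaled to library depth, so that levels can be set side by side between genes of different length. A gene was counted as detected when its FPKM was 1 or more in all 3 libraries, and rank 1 was the highest FPKM of a library over all 54532 genes of the table. Throughout, groups of 3 values are FPKM in control replicates 1, 2 and 3, in that order, unless another quantity is named. The libraries held 18872132, 18251121 and 18678948 deposited counts. The totals that FPKM implies were slightly larger, 19309054, 18490662 and 19051477. By these, 1 count on a gene of 1000 bases was worth 0.0518 to 0.0541 FPKM. The deposited counts were not whole, and their fractional part in replicates 1 and 2 was the same in every gene where it could be told apart, while replicate 3 held its complement. Values listed at 0 in replicate 3 alone are therefore treated as uncertain. The step that gave the fractions is not given in the sources used here.

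All 5 marker genes of the cochlear epithelium were detected, and 4 of them stood among the upper few percent of the table. Epcam, an adhesion protein of epithelial cells (ENSMUSG00000045394, chr17:87635979-87651106, forward strand, mm10), was measured at 148, 164 and 180.5 FPKM. Its ranks were 267, 253 and 239. The 3 values lay close together, and the mean was 164 ± 16.4 FPKM (SD, n = 3).

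Sox10, a transcription factor of the otic epithelium that glia and melanocytes of neural crest origin also express (ENSMUSG00000033006, chr15:79154908-79165240, reverse strand), was measured at 141, 127 and 162. Epyc, a small proteoglycan secreted by cells of the greater epithelial ridge (ENSMUSG00000019936, chr10:97644068-97682454, forward strand), was measured at 247, 181 and 155. Epyc was highest in replicate 1 and varied the most of the 5 markers, with ranks of 156, 234 and 276. Sox2, the transcription factor that defines the prosensory domain (ENSMUSG00000074637, chr3:34650405-34652461, forward strand), was measured at 56.1, 46.2 and 48.8, with ranks of 817, 1100 and 1039. Otogl, a glycoprotein of the acellular membranes of the inner ear (ENSMUSG00000091455, chr10:107760531-107912134, reverse strand), was the lowest of the 5 and almost level between libraries at 15.1, 15.4 and 15.6. Its ranks lay between 3840 and 3985. Epyc was above Epcam and Sox10 in replicates 1 and 2 and below both in replicate 3, while Sox2 and Otogl were the lowest in every library. By deposited counts, not divided by length, the mean rank of Otogl moved from 3905 to 1470 and that of Sox2 from 985 to 2212, so their order turned.

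**Figure D1:**
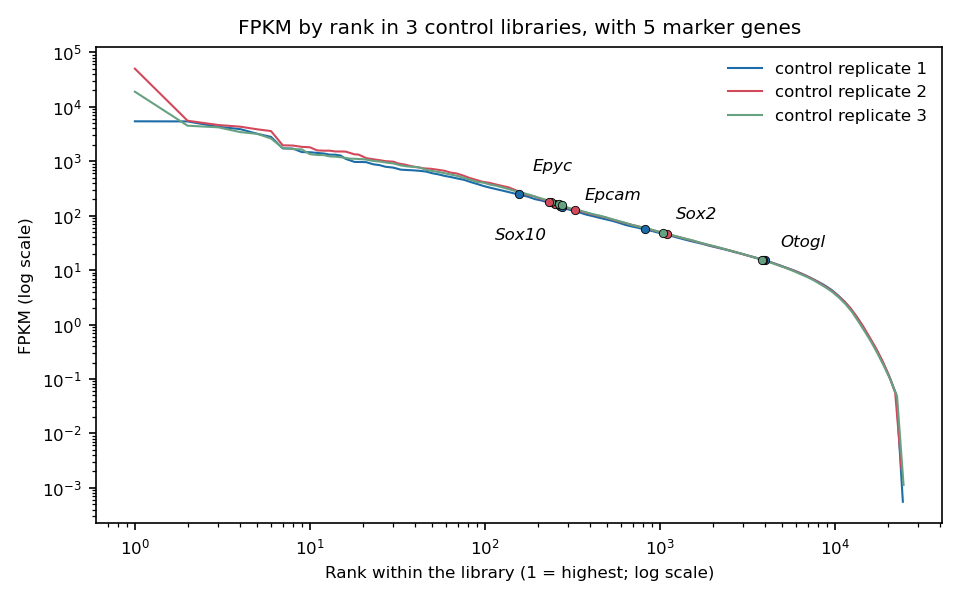
FPKM (log scale) against rank within the library (log scale), 1 line for each of the 3 control libraries, with circles at the 5 marker genes. The lines nearly coincide except at the top, where 1 gene of 57 bases reached 50242 FPKM in replicate 2, and the markers run from Epyc at 222 to Otogl at 3905 in mean rank.

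Of the 54532 genes, 13343 (24.5%) were detected in all 3 libraries and 5288 reached FPKM 10 in all 3. The single libraries held 14216, 14285 and 13982 genes at FPKM 1 or more. Of the 22046 protein-coding genes 11957 (54.2%) were detected, and 4989 of them reached FPKM 10 in all 3. The upper end of the list was shared, with 87 of the 100 highest genes and 909 of the 1000 highest genes in common to the 3 libraries. The 10, 100 and 1000 highest genes of each library took 14.4% ± 5.56, 32.2% ± 5.47 and 60.6% ± 3.78 of the summed FPKM (mean ± SD, n = 3).

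Genes of translation and of the mitochondrion filled the top of the list. Among the 100 genes with the best mean rank, 46 were coding genes of ribosomal proteins and 8 lay on the mitochondrial chromosome. The 105 coding genes whose names begin like those of ribosomal proteins took 12.6% ± 0.375 of summed FPKM (mean ± SD, n = 3). They were chosen by name only, so the set can hold genes that encode other proteins. The 37 genes of the mitochondrial chromosome took 5.89% ± 0.854 (mean ± SD, n = 3). The mitochondrial share was 6.64, 6.06 and 4.96% by library, lowest in replicate 3. Eef1a1, the elongation factor that brings tRNA to the ribosome, was the highest coding gene off the mitochondrial chromosome at 3889, 4315 and 4198. Rplp1, a protein of the ribosomal stalk, followed at 2802, 3584 and 3431, and Rps15 of the small subunit at 1464, 1807 and 1749. Other genes of this rank also serve every cell, among them Ptma, a small acidic nuclear protein, Tpt1, a translationally controlled tumour protein, and Hsp90ab1, a constitutive chaperone. Hsp90ab1 was measured at 972, 877 and 1073.

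The 20 coding genes off the mitochondrial chromosome with the best mean rank held 2 that belong to particular cells. Oc90, the otoconin that is secreted by nonsensory epithelium of the inner ear, was measured at 944, 1068 and 1043, with ranks of 22, 24 and 22. Its mean was 1018 ± 65.3 FPKM (SD, n = 3). Hba-a1, an alpha globin of red blood cells, was measured at 1472, 997 and 1095 and was highest in replicate 1. In bulk libraries such as these, fewer cells of a type and less RNA per cell cannot be told apart, so each level below is that of the whole dissection.

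A set of 24 gene lists of cell types and pathways was read against all protein-coding genes, whose median was 1.59 on the log2(FPKM + 1) scale, at a mean rank of 12168. Of 454 list genes in the table, counted once each, 381 (83.9%) were detected, beside 54.2% of all protein-coding genes. The lists were made of known genes of this tissue and its neighbours, so the higher share also describes how they were chosen.

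**Figure D2:**
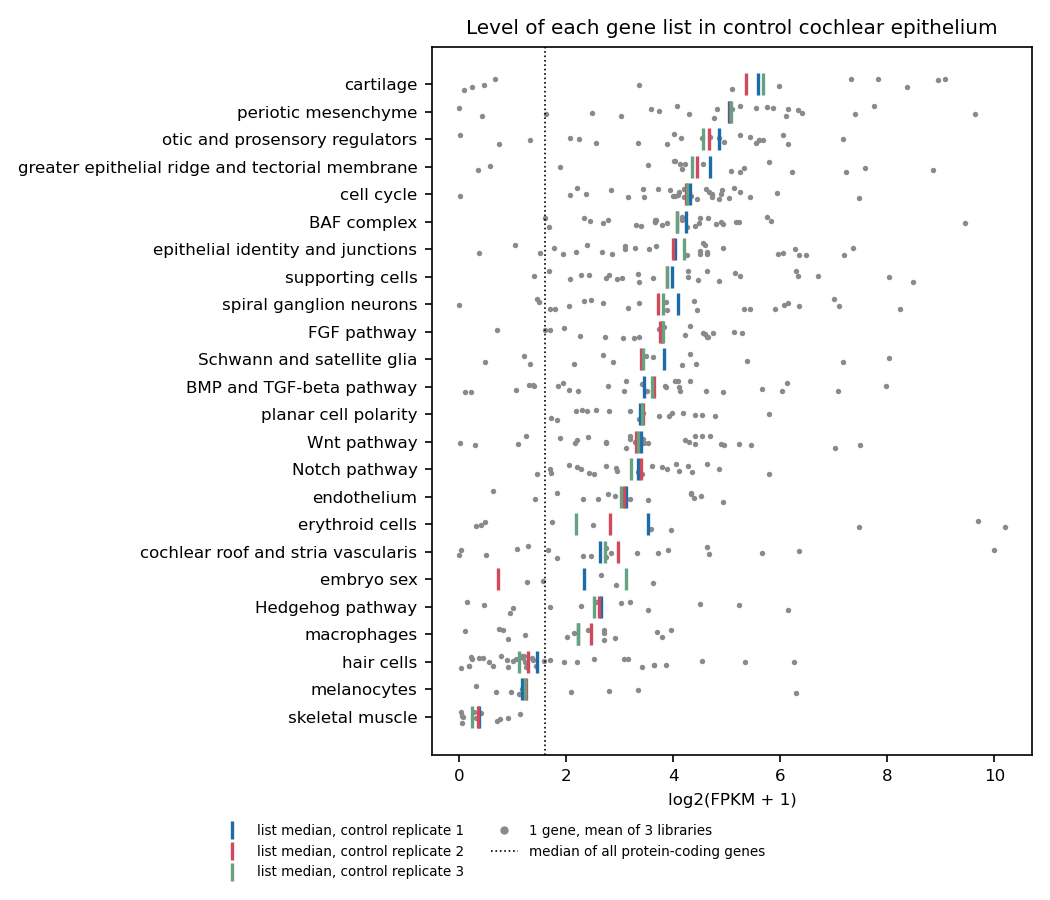
Level of each gene list, as log2(FPKM + 1), with 1 dot per gene at its mean over the 3 control libraries and 1 coloured bar at the list median of each library. Cartilage and periotic mesenchyme have the highest medians, hair cells, melanocytes and skeletal muscle lie below the dotted median of all protein-coding genes at 1.59, and the 3 bars of most lists nearly coincide.

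Epithelial identity and junction genes were detected in 28 of 30 cases, with a list median of 4.13 on the log2(FPKM + 1) scale. Below Epcam stood Cldn6, a claudin of embryonic epithelia, at 136, 154 and 144. Cldn3, another claudin of tight junctions, was measured at 79.8, 99.5 and 86.0. Cldn9, a claudin needed for hearing, was measured at 76.8, 75.2 and 92.2. In every library these claudins stood above the keratins and cadherins of the list. Krt8 and Krt18, partner keratins of simple epithelia, were measured at 59.0, 69.9 and 68.7 and at 57.1, 64.8 and 61.4. Cdh1, the cadherin of epithelial junctions, was measured at 22, 18.7 and 25.1, and Cdh2, which is also made by neural and mesenchymal cells, at 19.9, 15.9 and 18.5. In every library both cadherins were below the keratins. Ovol1, a zinc finger regulator of epithelia, was the one member under FPKM 1 in every library, at 0.214, 0.392 and 0.253. Grhl1 reached FPKM 1 in replicates 1 and 3 and was measured at 1.08, 0.918 and 1.18.

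Regulators of the otic epithelium and of the prosensory domain were detected in 21 of 23 cases, with a list median of 4.69 (log2 scale). After Sox10 the best ranked was Gata3, a factor needed for the prosensory epithelium and the spiral ganglion, at 67.5, 70.1 and 72.5. The 3 libraries placed it in a narrow band. Jag1, the Notch ligand of the prosensory domain, was measured at 31.7, 28.1 and 24.3. Eya1, a phosphatase and transcriptional coactivator, was measured at 27.8, 24.3 and 22.4. Pax2, an early otic factor, was low at 3.30, 4.41 and 3.46, and Prox1, a marker of supporting cell progenitors, was low at 3.78, 2.73 and 3.19. Both factors were far below Gata3 in every library. Pax8, a partner of Pax2 at the otic placode, was listed at 0, 0.0357 and 0. Dlx5, a factor of the dorsal otocyst, was measured at 0.938, 1.12 and 0.139 and was much lower in replicate 3.

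Greater epithelial ridge and tectorial membrane genes were detected in 16 of 18 cases, with a list median of 4.39. Clu, a secreted chaperone, led at 438, 419.5 and 526, and Tecta, the main noncollagenous protein of the tectorial membrane, was measured at 171, 136 and 144. Tectb, its partner protein, was measured at 81.0, 67.8 and 71.3. Epyc, Tecta and Tectb were all highest in replicate 1, and Clu was highest in replicate 3. Ceacam16, a tectorial membrane protein known from later stages, was under FPKM 1 in every library at 0.222, 0.298 and 0.289. Rorb, a nuclear receptor, was likewise low at 0.542, 0.503 and 0.422.

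Supporting cell genes were all detected, 24 of 24, with a list median of 3.94. Tuba1b, an alpha tubulin found in every cell, led at 334, 362 and 369. Fabp7, a fatty acid binding protein of supporting cells and of glia, was measured at 267, 268 and 251. Gjb2, the connexin whose loss is a common cause of deafness in people, was measured at 96.6, 104 and 111. Tuba1b and Fabp7 are not restricted to supporting cells, and the more restricted members were lower. Fgfr3, a receptor of pillar and Deiters cell progenitors, was measured at 9.42, 9.09 and 9.18. Lgr5, a progenitor receptor that acts in the Wnt pathway, was measured at 5.64, 5.99 and 5.54. Hes5, a Notch target, was measured at 3.42, 3.17 and 5.20 and was highest in replicate 3.

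Hair cell genes stood lower than the other lists of the floor, with 20 of 36 detected and a list median of 1.23, below that of all protein-coding genes. With replicates 1 and 2 alone, 25 were detected. Pvalb, a calcium buffer of hair cells and also of neurons and muscle, led at 66.8, 76.6 and 83.0. Ccer2, used as a marker of hair cells, was measured at 40.1, 34.7 and 44.2, and Cib2, a subunit of the transduction complex, at 19.7, 23.4 and 23.7. Gpsm2, which sets the shape of the hair bundle, was measured at 14.2, 12 and 14.7. The transcription factors Pou4f3 and Atoh1 lay close together between libraries, and Gfi1 was lower. Pou4f3, needed for hair cells to survive, was measured at 12, 11.1 and 11.3, and Atoh1, needed for them to form, at 8.18, 7.09 and 8.51. Gfi1, which acts after Atoh1, was measured at 1.82, 1.27 and 0.988, just under the threshold in replicate 3.

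Several genes of the mature bundle and synapse were at the bottom of the hair cell list. Tmc1, the pore of the transduction channel after birth, was measured at 0.140, 0.0531 and 0.296. At 0 in replicate 3 and above 0 in replicates 1 and 2 were 6 members, namely Otof, Cabp2, Ocm, Loxhd1, Strc and Tmc2. Otof, the calcium sensor of synaptic vesicles in hair cells, was measured at 2.03, 1.99 and 0, and its deposited counts were 309.8, 291 and 0. Myo15, the motor of stereocilia tips, was measured at 1.10, 1.22 and 0.111. The values of 0, and that of Myo15, came with replicate 3, the library with the complementary fractions, and whether the genes were silent in it was not tested. Tmc1 was low in all 3 libraries.

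Roof and stria vascularis genes were detected in 16 of 20 cases, with a list median of 2.74. Below Oc90 and Cldn9 stood Bmp4, a signal from the outer sulcus and lateral duct, at 45.6, 55.3 and 47.8. Cldn11, the claudin of strial basal cells, was measured at 20.7, 24.5 and 28.2. Some genes of the roof differed widely between libraries. Gsc, a homeobox gene of the duct, was measured at 6.94, 14.4 and 7.29, and Esrrb, a nuclear receptor of strial marginal cells, at 2.66, 8.51 and 7.65. Gsc was about as high in replicates 1 and 3 and higher in replicate 2, and Esrrb was low in replicate 1 alone. Otx2, which marks Reissner's membrane, was measured at 5.08, 4.28 and 2.87. Kcnq1, the strial potassium channel, was measured at 0.506, 1.53 and 1.47, lowest in replicate 1, and Foxi1 was listed at 0 in all 3 libraries.

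Markers of the tissues around the duct were also high. Periotic mesenchyme genes were detected in 21 of 23 cases, with a list median of 5.10 and a summed level of 1709.6 to 2102 FPKM over the 3 libraries. Otor, a secreted protein of periotic fibroblasts and cartilage, led at 681, 728 and 1014 and was highest in replicate 3. Vim, the intermediate filament of mesenchyme and of many other cells, was measured at 203, 219 and 223, and Lum, a proteoglycan of collagen fibrils, at 139, 192 and 174. Col3a1, a fibrillar collagen, was measured at 88.0, 73.6 and 90.2. Pou3f4, a factor of periotic mesenchyme whose loss causes deafness, was measured at 73.8, 57.3 and 73.1. Col1a1 differed from its partner chain. Col1a2 was measured at 71.7, 63.7 and 75.4 and Col1a1 at 13.3, 13.2 and 1.66, lower in replicate 3 than in replicates 1 and 2. Tcf21 was listed at 0 in all 3.

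Cartilage genes had the highest list median, 5.54, with 8 of 12 detected and a summed level of 1746 to 2078 FPKM. Col9a2, a chain of the collagen that covers cartilage fibrils, was measured at 503, 511 and 613. Col2a1, the main cartilage collagen, which cochlear epithelium also makes, was measured at 488, 457 and 543. Cnmd, an inhibitor of vessel growth in cartilage, was measured at 273, 363 and 355, and Col9a3 at 213, 200.04 and 275. Each was lowest in replicate 1 or 2 and highest in replicate 3 or, for Cnmd, in replicate 2. The core matrix genes of cartilage were not at such levels. Acan, the large aggregating proteoglycan, was measured at 0.582, 0.644 and 0, and Hapln1, its link protein, at 1.04, 0.962 and 0. Matn3 and Comp were measured at 0.275, 0.269 and 0 and at 0.0873, 0.109 and 0. All 4 were at 0 in replicate 3 alone, so their absence there is uncertain. The lowest collagen of the list, Col11a1, a minor fibril collagen, was measured at 35.0, 25.2 and 42.1, above all 4 in every library.

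Most neuronal and glial genes of the lists were detected. Spiral ganglion neuron genes were detected in 23 of 24 cases, with a summed level of 966 to 1112 FPKM. Uchl1, a neuronal deubiquitinase, led at 275, 283 and 349. Tubb3, a neuronal tubulin, was measured at 139, 122 and 149, and Nefm, a neurofilament, at 79.8, 76.7 and 84.8. Stmn3, a regulator of neuronal microtubules, was measured at 123, 118 and 141. Uchl1 was lowest in replicate 1, and the others named here were lowest in replicate 2. Neurog1, which starts ganglion neurogenesis before this stage, was listed at 0 in all 3 libraries. Schwann and satellite glia genes were detected in 13 of 14 cases, with a summed level of 529 to 552. Beyond Fabp7 and Sox10, which epithelial cells also express, Erbb3, the neuregulin receptor, was measured at 43.2, 40.3 and 39.1. Erbb3 varied little between the libraries.

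Markers of blood and vessel cells were detected as well. Endothelial genes were detected in 14 of 15 cases at a summed level of 151 to 173 FPKM, led by Cldn5, the claudin of endothelium, at 28.7, 26.1 and 33.6. Macrophage genes were detected in 11 of 15 cases at a summed level of 74.2 to 82.3, led by C1qa, a complement subunit, at 13.1, 13 and 18.3. Erythroid genes were detected in 6 of 10 cases at 1977 to 2686, nearly all from 3 globins. Replicate 1 was highest for Hba-a1 and for Hbb-bs, which was measured at 971, 766 and 774. Hbb-y, an embryonic globin, was measured at 17.3, 23.9 and 2.74 and was lowest in replicate 3.

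Melanocyte genes were detected in 5 of 9 cases, and skeletal muscle genes in 1 of 11. Ednrb, an endothelin receptor that supporting cells also express, led the melanocyte list at 102, 73.9 and 61.8. Dct, an enzyme of pigment synthesis, was measured at 1.26, 4.17 and 5.64, lowest in replicate 1, and Pmel, the melanosome matrix protein, at 5.36, 10.7 and 13.2. The summed level of muscle genes was 3.98 to 5 FPKM, with Des, the muscle intermediate filament, highest at 1.17, 1.04 and 1.41, and the defining factors Myod1 and Myog under FPKM 1 in every library. The part of mesenchyme, cartilage, neurons, glia, endothelium and blood in the genes that they share with epithelium was not tested.

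Most genes of the signalling pathways were detected. All Notch genes (23 of 23) and all planar cell polarity genes (18 of 18) were detected, as were 19 of 20 FGF, 27 of 30 Wnt and 26 of 29 BMP and TGF-beta genes. Hedgehog genes were detected in 10 of 14 cases. The list medians lay between 2.59 for Hedgehog and 3.78 for FGF on the log2 scale.

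In the Notch pathway the ligands Dll1 and Jag2, which hair cells use, were measured at 2.50, 2.33 and 1.97 and at 10.2, 9.59 and 9.23. The receptor Notch1 was measured at 12.6, 10.4 and 10.6, and Hes6, a bHLH factor of differentiating cells, led the list at 48.8, 54.3 and 60.4. Notch1 and Hes6 were above both ligands in every library. In the FGF pathway Fgf20, the ligand that promotes the prosensory domain, was measured at 3.67, 5.38 and 2.6, and Fgf10, a ligand of the greater epithelial ridge, was higher at 27.2, 21.5 and 19.3. The decoy receptor Fgfrl1 was measured at 37.0, 38.6 and 39.0, and Dusp6, the phosphatase that ERK signalling induces, at 35.7, 35.8 and 31.6. Fgf10 was the highest of the FGF ligands of the list in every library, since Fgf3, Fgf8, Fgf9, Fgf16 and Fgf20 were all at FPKM 5.75 or below.

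In the Wnt pathway Ctnnb1, beta-catenin, led at 189.6, 171 and 176, and Sfrp1, a secreted inhibitor, followed at 135, 120.4 and 131. The ligands Wnt5a and Wnt7b were measured at 20.2, 20.4 and 19.7 and at 16.6, 20.4 and 18.8. Both ligands were well below Sfrp1 in every library. Wnt16 was listed at 0 in replicates 1 and 2 and Wnt2b was under FPKM 1 in every library. In the BMP and TGF-beta pathway the Id genes, which BMP induces, led the list. Id3 was measured at 247, 243 and 261 and Id1 at 119.7, 146 and 137, with Tgfb2, a ligand, at 82.5, 61.2 and 63.4. In the Hedgehog pathway Gas1, a coreceptor, and Smo, the signal transducer, were measured at 71.7, 62.6 and 76.3 and at 36.7, 35.2 and 37.6. The ligand Shh was measured at 1.64, 2.94 and 2.25, below Gas1 and Smo in every library. Ptk7, a polarity receptor, led the planar cell polarity genes at 51.4, 54.9 and 55.8, and Vangl2, a core polarity protein, was measured at 17.7, 16 and 17.5.

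The BAF chromatin remodelling complex, whose ATPase is the gene removed elsewhere in the study, was detected in full, 29 of 29. Smarca4, which encodes that ATPase, Brg1, was measured at 56.9, 53.5 and 55.9 FPKM (55.4 ± 1.73, SD, n = 3). Smarca2, which encodes the alternative ATPase Brm, was measured at 8.90, 7.97 and 9.86, lower than Smarca4 in every library. Actb, which is a subunit and also the cytoskeletal actin, led at 684, 739 and 679, and Smarcc2, a scaffold subunit, was measured at 54.9, 51.7 and 51.5. Cell cycle genes were detected in 32 of 33 cases. Cdkn1c, a cell cycle inhibitor, led at 175, 174 and 179, above Pcna, the sliding clamp of replication, at 64.5, 52.0 and 65.7. Cdkn2a, an inhibitor linked to senescence, was listed at 0, 0 and 0.0448.

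Transcription factors were present in number but at moderate levels. Of the 1469 genes with a family assigned in the deposited table, 893 (60.8%) were detected and 265 (18%) reached FPKM 10 in all 3, beside 54.2% and 22.6% of protein-coding genes. The median FPKM of the detected ones was 6.21, against 8.65 for detected protein-coding genes. None was among the 100 genes with the best mean rank, and 39 were among the best 1000.

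Ybx1, a cold shock protein that binds RNA and DNA, had the best mean rank of the factors, 126, at 308, 337 and 319. Id3 followed. Irx3, an Iroquois homeobox factor, came next at 142, 158 and 172. Sox10 came after it, and Maz, a zinc finger factor found in most cells, was measured at 128, 142 and 145. Tcf3, the bHLH partner that Id proteins sequester, was measured at 96.6, 101 and 99.7. Other factors of the best 20 are known from this organ. Six2, a homeobox factor of mesenchyme, was measured at 74.6, 71.0 and 79.4, Nr2f1, an orphan nuclear receptor that shapes the duct, at 72.1, 68.5 and 74.3, and Tead2, a partner of Yap, at 68.6, 75.8 and 69.1. In all 20, the highest library was no more than 1.29 times the lowest.

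**Figure D3:**
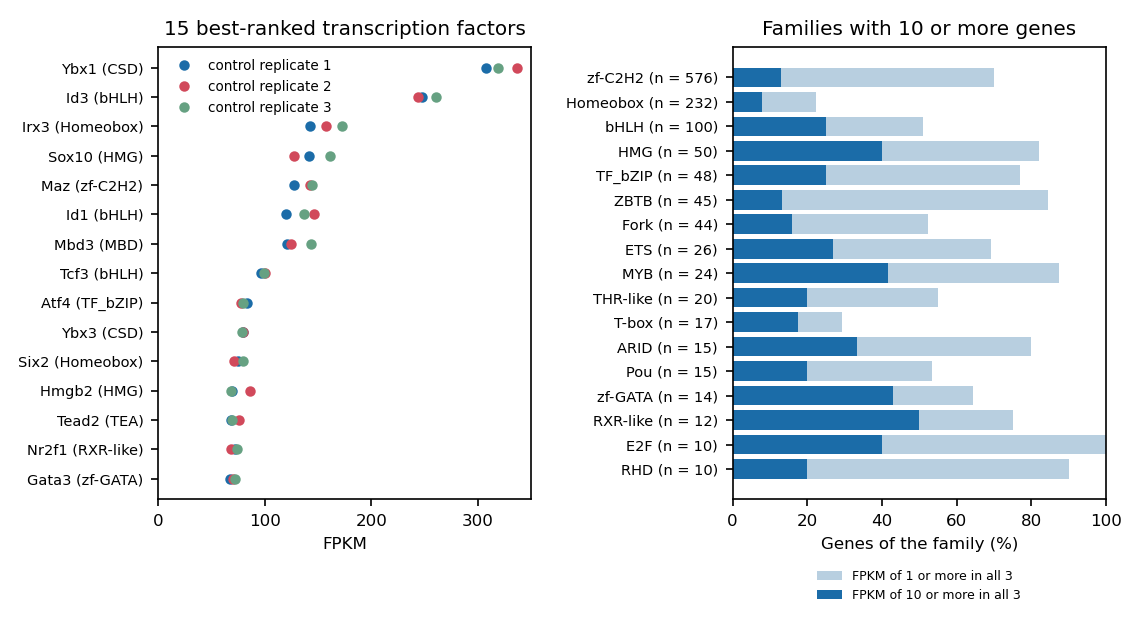
Left, FPKM of the 15 best-ranked transcription factors, with 1 dot per control library. Right, the percentage of each family of 10 or more genes at FPKM 1 or more (light) and FPKM 10 or more (dark) in all 3 libraries, from 10 of 10 E2F genes to 52 of 232 homeobox genes.

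Families differed in how many of their genes were detected. All E2F factors, which control replication genes, were detected (10 of 10), and among MYB, HMG and ZBTB genes the counts were 21 of 24, 41 of 50 and 38 of 45. The C2H2 zinc fingers were the largest family, with 404 of 576 detected but only 74 at FPKM 10 in all 3. Homeobox and T-box families had the lowest shares, 52 of 232 and 5 of 17. Of the 40 Hox genes, which pattern the trunk, 1 was detected, and the summed FPKM of all Hox genes lay between 4.06 and 5.02. Tbx18, a T-box factor of periotic mesenchyme, was measured at 56.4, 47.8 and 54.6, and Tbx2, a T-box factor of the otic epithelium and its surroundings, at 52.6, 55.9 and 49.4. The detected T-box genes had a median of 19.3 FPKM, with 3 of 5 at FPKM 10 or more in all 3, against 4.99 for the detected C2H2 genes.

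Shares by gene biotype, as named in the deposited table, differed between FPKM and counts, since FPKM divides by gene length. Protein-coding genes took 83.9% ± 6.03 of summed FPKM and 97% ± 0.440 of deposited counts (mean ± SD, n = 3). Genes of biotype miRNA took 1.93, 13.5 and 5.83% of FPKM but 0.0374, 0.305 and 0.118% of counts. Nearly all of it came from Gm23935, which took 1.70, 13 and 5.52% of FPKM. The gene was low in replicate 1 and high in replicate 2, and the share of protein-coding genes was lower where it was high, from 89.2% in replicate 1 to 77.4% in replicate 2.

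**Figure D4:**
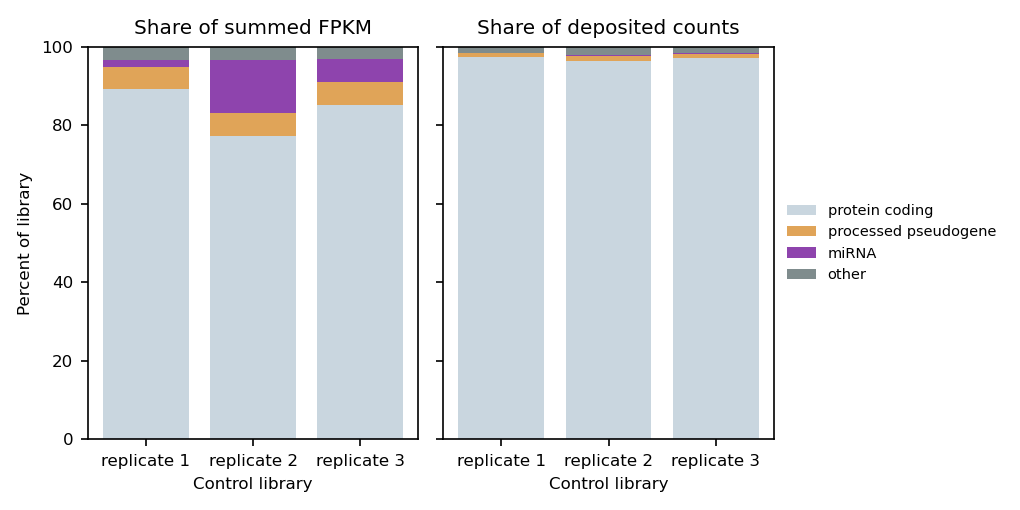
Stacked shares (percent) of summed FPKM, left, and of deposited counts, right, taken by gene biotype in each of the 3 control libraries. The miRNA band reaches 13.5% of FPKM in replicate 2 and cannot be seen in the counts, where protein-coding genes take 97%.

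Gm23935 is a locus of 57 bases, so 1 count was worth 0.909 to 0.949 FPKM there. Its sequence is shown because 3 annotated genes hold the same bases, and another differs at 1 base, marked by a capital. All are given 5′ to 3′ from GENCODE M21 on GRCm38, the assembly that mm10 names.
Gm23935: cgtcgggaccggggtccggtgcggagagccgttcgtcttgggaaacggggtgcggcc
Gm24270: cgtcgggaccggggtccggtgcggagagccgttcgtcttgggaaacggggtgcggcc
Gm24245: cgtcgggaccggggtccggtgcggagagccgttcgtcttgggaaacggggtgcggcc
Gm24187: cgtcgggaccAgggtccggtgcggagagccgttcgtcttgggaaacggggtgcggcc
Gm23935 lies at chr16:11144125-11144181 on the forward strand, Gm24270 at chr9:56223715-56223771 on the reverse strand, Gm24245 at chr4:139338304-139338360 on the forward strand and Gm24187 at chr13:9834469-9834525 on the reverse strand. Gm24187 carries G11A relative to Gm23935, counted from 1 at the 5′ end.

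The identical loci were given very different values. Gm23935 was measured at 5392, 50242 and 18959.7 FPKM, from 5934, 52953 and 20589 counts. Gm24270 was measured at 164, 1564 and 601, and Gm24245 was listed at 0 in all 3. The ratio of Gm23935 to Gm24270 was nearly the same in every library, 32.8, 32.1 and 31.5. A read that lies within these bases fits all 3 loci, and bases beside the loci were not compared, so the value of each single locus is uncertain. The order replicate 2, replicate 3, replicate 1 also held for CT010467.1, a gene of biotype rRNA measured at 177, 666 and 419, and for Gm26917 at 8.70, 113 and 39.3. Among the 10 coding genes of widest range, those with the same order included Lars2 and Rpl35a. The share of all genes with this order was not counted, and a common source was not tested. Lars2, the mitochondrial leucyl-tRNA synthetase, was measured at 10, 56.8 and 26.4, and Rpl35a, a ribosomal protein gene, at 3.61, 68.4 and 23.4.

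Other short noncoding genes were at the edge of detection. Of 2207 miRNA genes 51 were detected, and 10 of those had 10 or more counts in each library. Of 1507 snoRNA genes 57 were detected, 15 of them with 10 or more counts. The median of the lowest count was 4 for detected miRNA genes and 6 for detected snoRNA genes, against 718 for protein-coding genes. Most of them, 44 and 54, overlap another annotated gene, and whether reads were counted by strand is not given in the sources used here. Such values count fragments that fall on the locus, not mature small RNAs.

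Processed pseudogenes, copies of spliced mRNAs, held 5.57, 5.71 and 5.92% of FPKM. Together with the transcribed ones, 589 were detected, and 511 (86.8%) shared 50% or more of their 25-base words with a single coding gene. Of the 214 at FPKM 10 or more in all 3, 205 did, and 56 had a higher FPKM than that coding gene in every library. FPKM divides by gene length, which favours a copy shorter than its coding gene. Counts in such pairs can be split by the read assignment, so both members are uncertain.

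The pair of Rpl34, a protein of the large ribosomal subunit, and Rpl34-ps1 is the clearest case. Rpl34-ps1 was measured at 987, 1512 and 1089.5 FPKM, while the coding gene was measured at 20, 0 and 30.6 and was listed at 0 in replicate 2. By deposited counts the copy (354 bases) held 6748, 9898 and 7348 and the coding gene (2643 bases) 1022, 0 and 1543. Over the 351 coding bases the sequences were 99.4% identical, with 2 differences. A stretch of 60 coding bases, positions 73 to 132 counted from the first base of the start codon, is shown to make the point, with the base that differs in capitals. The bases are from GENCODE M21, and the copy lies at chr6:71124682-71124741 on GRCm38, forward strand.
Rpl34: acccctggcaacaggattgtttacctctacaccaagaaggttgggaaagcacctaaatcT
Rpl34-ps1: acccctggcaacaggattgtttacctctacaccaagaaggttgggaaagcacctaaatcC
A fragment from the lower-case stretch fits both genes. Rpsa-ps10, a copy of the laminin receptor gene Rpsa, was measured at 455, 1504 and 1305, low in replicate 1, and Rpsa itself at 470.4, 333 and 403. Gm9794, a copy of Rpl23, was measured at 647, 735 and 781, with Rpl23 at 376, 403 and 432. By FPKM the copies of both genes were above them in replicates 2 and 3, and Rpsa-ps10 varied more between libraries than Rpsa. The copies are shorter, at 885 bases against 3170 for Rpsa and 423 against 1770 for Rpl23. By deposited counts Rpsa-ps10 was at 7781, 24614 and 21996 and Rpsa at 28791, 19541 and 24363, above the copy in replicates 1 and 3. For the other pair, FPKM multiplied by length was higher for Rpl23 than for Gm9794 in every library.

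The 3 libraries were close to one another over most genes. Over the 13343 detected genes the SD of log2(FPKM + 1) had a median of 0.11, and its 90th percentile was 0.25. The median absolute difference of log2(FPKM + 1) was 0.13 between replicates 1 and 2, 0.13 between 1 and 3 and 0.12 between 2 and 3. On that scale a difference of 2-fold or more was seen in 105, 60 and 79 genes in these pairs. The added 1 makes differences smaller at low FPKM, so genes near the threshold are counted less readily. These values leave out any gene under FPKM 1 in a library, and with it the genes at 0 in replicate 3. They were also taken after the step that gave the shared fractions, so the spread before that step is not known. By biotype the median SD ran from 0.105 for protein-coding genes to 0.443 for miRNA genes.

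Genes with the widest range among well expressed coding genes were of a few kinds. Rpl29 and Rpl34, both ribosomal protein genes with many copies, were listed at 0 in replicate 2, with Rpl29 at 37.9, 0 and 19.3. Sumo2, a ubiquitin-like modifier that also has processed copies, was measured at 11, 80.9 and 30.6, high in replicate 2. Hbb-y and Col1a1 were low in replicate 3. Ddx3y, on the Y chromosome, was lowest in replicate 2, at 16.3, 0.645 and 7.65.

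**Figure D5:**
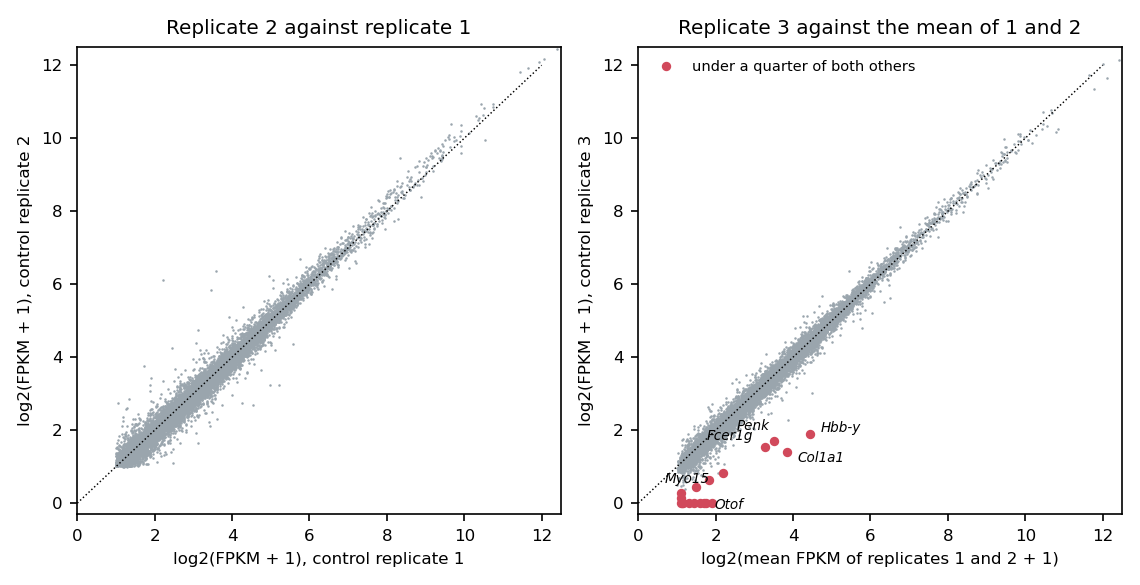
Log2(FPKM + 1) of protein-coding genes at FPKM 1 or more in replicates 1 and 2, with replicate 2 against replicate 1, left, and replicate 3 against the mean of replicates 1 and 2, right. Dotted lines mark equality, and red dots are the 18 genes, of 12094, whose value in replicate 3 was under 25% of both others.

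Values of 0 in a single library were most frequent in replicate 3. Replicate 3 also had the most genes above 0, 24692, against 24461 in replicate 1 and 24073 in replicate 2. Genes at 0 in 1 library and above 0 in both others numbered 773 for replicate 1, 940 for replicate 2 and 1233 for replicate 3. With both others at FPKM 1 or more, they numbered 24, 23 and 35, of which 3, 3 and 9 were protein-coding. Among the list genes the contrast was wider, with 1, 1 and 14 genes at 0 in that library alone. The 14 in replicate 3 were 3.08% of the list genes, beside 1.64% of all protein-coding genes and 2.26% of all genes. The lists were chosen with earlier results of these data known, so this contrast is description only. The 10 highest genes at 0 in replicate 3 alone, by their mean in the other libraries, were 5 snoRNA genes, 1 miRNA gene, 3 processed pseudogenes and 1 coding gene. Among them Snord8, a small nucleolar RNA, was measured at 6.59, 3.93 and 0. Of the list genes, hair cells held 6 and cartilage 4.

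Protein-coding genes under 25% of both other libraries in replicate 3 numbered 18, against 8 in replicate 1 and 11 in replicate 2. In the other direction, coding genes at FPKM 1 or more and above 4 times both other libraries numbered 3, 6 and 4. Those low in replicate 3 were led by Hbb-y and Col1a1. Penk, the precursor of enkephalins, was measured at 10.5, 10.1 and 2.28, and Fcer1g, a signalling chain of immune receptors, at 8.77, 8.72 and 1.92. Of the other macrophage genes, C1qa and Tyrobp were highest in replicate 3, with Tyrobp at 5.44, 4.54 and 6.69. The median of the macrophage list was 2.22, 2.47 and 2.21 on the log2(FPKM + 1) scale in the 3 libraries. Acbd7, a protein that binds acyl-CoA, was the highest coding gene at 0 in replicate 3 alone, at 2.62, 2.84 and 0. For Col1a1, Penk, Fcer1g and Acbd7 replicates 1 and 2 were close to each other, and replicate 3 stood below both. Replicates 1 and 2 also share the fractional part of their counts, and whether the step behind it set this pattern was not tested.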

How the data were processed

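RNA was sequenced from 3 control libraries of mouse cochlear epithelium at embryonic day 16. Per the submitters' processing notes, the build was mm10 and the tools were HISAT2 2.0.5, featureCounts 1.5.0-p3, fastp, CASAVA 1.8 and DESeq2 1.20.0. The role of each tool and its settings were not among the sources used here.

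The authors deposited FPKM per gene, and these FPKM values were used for every rank and level. They also deposited estimated counts per gene, used for depth and as an alternative. Both hold 54532 genes. In all 23917 genes above 0 in the 3 libraries, the estimated counts were multiples of 1/12 (tolerance 0.001). In the 19839 genes whose fraction could tell libraries apart, the fraction was the same in replicates 1 and 2 in 100% of genes, and that of replicate 3 was its complement in 100%. Multiplied by gene length, FPKM was a whole number of steps of 1 size per library in 100% of values (tolerance 0.01), which equalled the rounded counts in nearly all, so FPKM carries the same change. The count table summed, against the library totals that FPKM implies, to 97.7% to 98.7%. The library titled control replicate 3 carries the number 4 in the tables.

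Ranks, shares, medians and SDs were computed in Python 3.11.15 with pandas 2.3.3 and numpy 2.4.6, on FPKM or on log2(FPKM + 1), and the scripts were tested on simulated data. The threshold was FPKM 1, and 3 counts, at 1000 bases 0.155 to 0.162 FPKM, is the limit that a count of 0 allows, for counting error only. Named were the 20 best-ranked coding genes off the mitochondrial chromosome, the 5 markers, up to 4 best-ranked and any low members per list, the 20 best-ranked transcription factors and the best 2 per family, the best 5 per noncoding biotype, the 10 coding genes of widest range and the 10 highest at 0 in replicate 3 alone. Further list members, and Penk, were named after their values were seen. The genes, lists and rules were chosen with earlier results of these data known. Of the genes named by rule, 103 of 219 overlap another annotated gene, and strand-specific counting is not given in the sources used here. GENCODE M21 held 99.8% of the IDs, and 27 date-like names were replaced by the symbol that belongs to their ID. Some genes that these rules name are not reported here. Alternatives were other thresholds, pseudocounts, scales and subsets of libraries.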

Additional observations from a re-analysis of the deposited data

How the results depend on the processing

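With 3 libraries of 1 group no test was run. Levels, shares, ranks and numbers of genes have no direction to reverse, so the alternatives were read only for how far each value moved. The order of Otogl and Sox2 did turn by deposited counts. No paired analysis was possible because only 1 group was described and no result comes from a test. Leaving out each library in turn gave 13549 to 13626 detected genes, 897 to 909 detected transcription factors and 385 to 388 list genes. The same step gave 81.3 to 87.2% for the protein-coding share, 5.51 to 6.35% for the mitochondrial share and 270 to 302 for the median rank of the 5 markers, which was 289.7 with all 3. The number at 0 in replicate 3 alone, 35, became 85 to 101 when replicate 1 or 2 was left out, since only 1 other library then had to reach the threshold, and it cannot be computed without replicate 3. The median SD of 0.11 became 0.0837 to 0.0937 with 2 libraries. A median SD is lower by construction with 2 libraries than with 3, so the fall does not show closer agreement. Any value above 0 as the threshold gave 21366 genes. At FPKM 0.5 and 2, 101 and 14 genes were at 0 in replicate 3 alone. Deposited counts, not divided by length, gave 97% protein-coding, 2.43% mitochondrial and a marker rank of 359. Ranks among protein-coding genes only gave 244. Genes of 200 bases or more, an alternative chosen after seeing the data, gave 91.2% protein-coding. The median SD was 0.128 with a pseudocount of 0.1, 0.101 without a filter and 0.186 on the TPM scale, where a library's summed FPKM, Gm23935 included, sets the scale. By counts, which favour long genes, the median rank of the cartilage list moved from 1201 to 260, that of the BAF complex from 3542 to 1673, that of spiral ganglion neurons from 4377 to 2191, that of otic and prosensory regulators from 2289.7 to 1238, that of planar cell polarity from 5914 to 3510.5 and that of erythroid cells from 7344 to 11484. Of 293 recomputed values, 221 moved by less than their limit and 72 by more. The limits differed between values, so these numbers do not measure stability. Without replicate 1, the median of the embryo sex list went from 2.65 to 1.92 within its limit. That of periotic mesenchyme went from 5.10 to 5.13, beyond its limit. Where no construction of an alternative shows it, the cause was not tested. Depth limits short genes most, since few counts already give an FPKM above 1.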

Other observations

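Among long intergenic RNAs, H19, the imprinted RNA of growing embryonic tissue, was the highest, measured at 484, 492 and 530.2 FPKM in control replicates 1, 2 and 3. The next long intergenic RNA, 6330403K07Rik, was measured at 107, 117 and 108, and Malat1, a nuclear RNA of most cells, at 58.9, 72.2 and 60.3. H19 was well above the others in every library. Of 5559 genes of this biotype 181 were detected. Among processed transcripts, 2410006H16Rik was measured at 160.0, 218 and 171, and Gas5 and Snhg8, which host small nucleolar RNAs, at 62.7, 66.4 and 58.1 and at 53.7, 73.4 and 59.8. Snord104, a small nucleolar RNA, was the highest of its biotype at 229, 331 and 233.

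Genes of the sex chromosomes differed between the libraries, and the sex of the embryos is not labelled. Xist, the RNA that coats the inactive X chromosome, was measured at 0, 38.2 and 10.3. Eif2s3y, a translation factor gene on the Y chromosome, was measured at 22.2, 5.43 and 11.6, and Uty, a demethylase gene there, at 3.74, 0.0387 and 1.85. Replicate 1 had no Xist and the highest Y values, replicate 2 had the highest Xist and the lowest Y values, and replicate 3 lay between. Whether libraries pooled embryos of both sexes was not tested.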
